A study of Mus musculus with 32 samples.

Results

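Muscle burns fatty acids, and 10 genes of that use were followed through eye muscle, limb muscle and brainstem samples of albino and pigmented mice. The 10 were picked by symbol, as a set of fatty acid use genes known as targets of the PPAR receptors or close to them, out of 24421 genes in the count table. They are Pdk4, Ucp3, Eci1, Fabp3, Cpt1b, Angptl4, Hadha, Acadl, Cd36 and Slc25a34, and each symbol was found in the table. The set was put together with results of these libraries in view, so its counts and medians, where set beside those of all genes, describe it and are no test. The albino mice are of the strain B6(CG)Tyr(c-2J)/J, named for its allele of Tyr, which encodes the pigment enzyme tyrosinase, and the pigmented mice are C57BL/6. Tissues were the extraocular muscles around the eyeball (EOM), the tibialis anterior of the shin (TA), and samples of the oculomotor (CN3) and abducens (CN6) motor neurons, the cells in the brainstem that drive the eye muscles. Each tissue has 4 albino and 4 C57BL/6 libraries, 32 in all, and the series asks about nystagmus, an involuntary oscillation of the eyes, in the albino strain. The labels give no treatment, age, sex, feeding state or time of collection. Whether replicates come from different animals is not said, and the p-values then reflect only how far these libraries spread, which may be technical.

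Fatty acids reach muscle from the blood, where lipoprotein lipase frees them, and they are bound inside the fibre by a carrier protein. They are tied to coenzyme A, passed into mitochondria as carnitine esters, and shortened step by step in beta-oxidation. The PPARs are nuclear receptors that bind fatty acids, pair with an RXR receptor and switch on genes of this route, so that fasting and exercise raise many of them in muscle. Pdk4 stands at the point of choice between fuels, since the kinase it encodes shuts off pyruvate dehydrogenase and so holds back the burning of sugar carbon.

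The promoters of Pdk4, Ucp3 and Slc25a34 are shown because these genes had the largest differences between the strains in eye muscle among the 10. The sequences are from RefSeq on GRCm38.p6, read 5′ to 3′ on the strand of the gene. They come from the 250 bases before the RefSeq start and stop earlier where the GENCODE gene begins before it. This left 219 bases for Pdk4, 249 for Ucp3 and 250 for Slc25a34. Capitals mark AGGTCA, the half-site that PPARs and related receptors bind, or TGACCT, the same letters on the other strand. The windows lie at chr6:5496310-5496528 (minus strand) for Pdk4, chr7:100472741-100472989 (plus strand) for Ucp3 and chr4:141623835-141624084 (minus strand) for Slc25a34.
Pdk4: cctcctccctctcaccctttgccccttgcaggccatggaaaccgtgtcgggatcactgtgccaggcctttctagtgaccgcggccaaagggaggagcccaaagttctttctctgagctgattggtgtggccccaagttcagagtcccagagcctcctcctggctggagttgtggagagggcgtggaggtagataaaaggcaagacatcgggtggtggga
Ucp3: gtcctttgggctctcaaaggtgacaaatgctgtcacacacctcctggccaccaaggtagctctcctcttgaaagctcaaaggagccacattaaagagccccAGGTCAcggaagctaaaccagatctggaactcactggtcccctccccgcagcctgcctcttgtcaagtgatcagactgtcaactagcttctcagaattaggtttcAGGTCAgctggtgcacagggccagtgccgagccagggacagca
Slc25a34: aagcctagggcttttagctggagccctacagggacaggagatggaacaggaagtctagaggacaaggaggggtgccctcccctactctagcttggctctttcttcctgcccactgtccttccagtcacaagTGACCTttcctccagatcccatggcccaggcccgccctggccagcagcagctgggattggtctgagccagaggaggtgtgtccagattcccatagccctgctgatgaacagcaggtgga
The Ucp3 window holds AGGTCA at 149 and 44 bases before the RefSeq start, and the Slc25a34 window holds it on the other strand at 119 bases. On both strands of the 250 bases before the start, AGGTCA lay in 3 of the 8 genes with a window, Cd36 being the other, against 14% of 32841 promoters. The full PPAR element, 2 copies of AGGTCA on the same strand with 1 base between, was in 0 of the 8 and in 0.0335% of all promoters, and CACGTG, the box that clock proteins bind, was in 0 of the 8 and in 6.02%. Each match of the full element also counts as a match of AGGTCA. Cpt1b and Angptl4 were not among the 8.

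Of the 32 libraries, 24 carried muscle or brain genes as their label would have it, and 8 albino libraries did not. That check set muscle against brain only and did not tell CN3 from CN6. In albino EOM 1, albino EOM 2, albino TA 1 and albino TA 2, as labelled, brain genes were found, and in albino CN3 3, albino CN3 4, albino CN6 3 and albino CN6 4 muscle genes. Ckm, the muscle creatine kinase, read at most 0.306 CPM (a gene's counts relative to the total of the library) in the first 4 and 5320 to 13300 CPM in the last 4. Myh13, a myosin typical of eye muscle, stood at 3740 and 3770 CPM in the pair labelled CN3, and at 19.5 and 94 CPM in the pair labelled CN6. No library was moved to another group. Tests used the 24 matching libraries, 2 albino and 4 C57BL/6 per tissue, and the 8 others are given one by one with no test. With all 32 as labelled, 0 of the 10 genes were called in EOM or TA. Those fits called 1 gene of all in EOM and few in TA, so the 0 is not particular to the 10. Library totals ran from 18544334 to 44254021 counts. Markers of motor neurons summed to 52 to 99.1 CPM in the albino CN3 libraries and 4.21 to 7.03 CPM in the C57BL/6 CN3 libraries, so the CN3 samples of the strains differ in the share of the labelled cells or in RNA per cell. In C57BL/6 EOM, a muscle, the same markers summed to 6.06 to 11.6 CPM. These markers therefore give no sign of motor neurons in the C57BL/6 CN3 samples beyond the level in muscle. In bulk tissue, fewer cells of a type and less RNA per cell cannot be told apart.

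In eye muscle, 8 of the 10 genes rose in albino mice, 1 fell (Cd36), and Cpt1b was not called. The threshold for a call was an adjusted p of 0.05 in edgeR's quasi-likelihood test, and 32% of the 15397 genes tested there were called, 14.5% higher and 17.6% lower. Of the called genes 45.2% were higher in albino EOM, and 54.7% with upper quartile factors. The median log2 fold change was 0.92 over the 10 and 0.01 over all genes. The CPM ranges of the strains did not overlap for 9 of the 10, against 51.4% of all genes. With offsets for the GC content and exon length of each gene, 5 of the 10 were called, all higher: Pdk4, Ucp3, Eci1, Angptl4 and Slc25a34. Over 4 equal groups of genes by GC content, the lowest had a median log2 fold change of −0.39 in EOM and the highest 0.29, and in TA the same medians were −0.25 and 0.19. The exons of Cd36 are 38.4% GC, the lowest of the 10, those of Pdk4 44.9% and those of Slc25a34 58%, the highest.

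**Figure D1:**
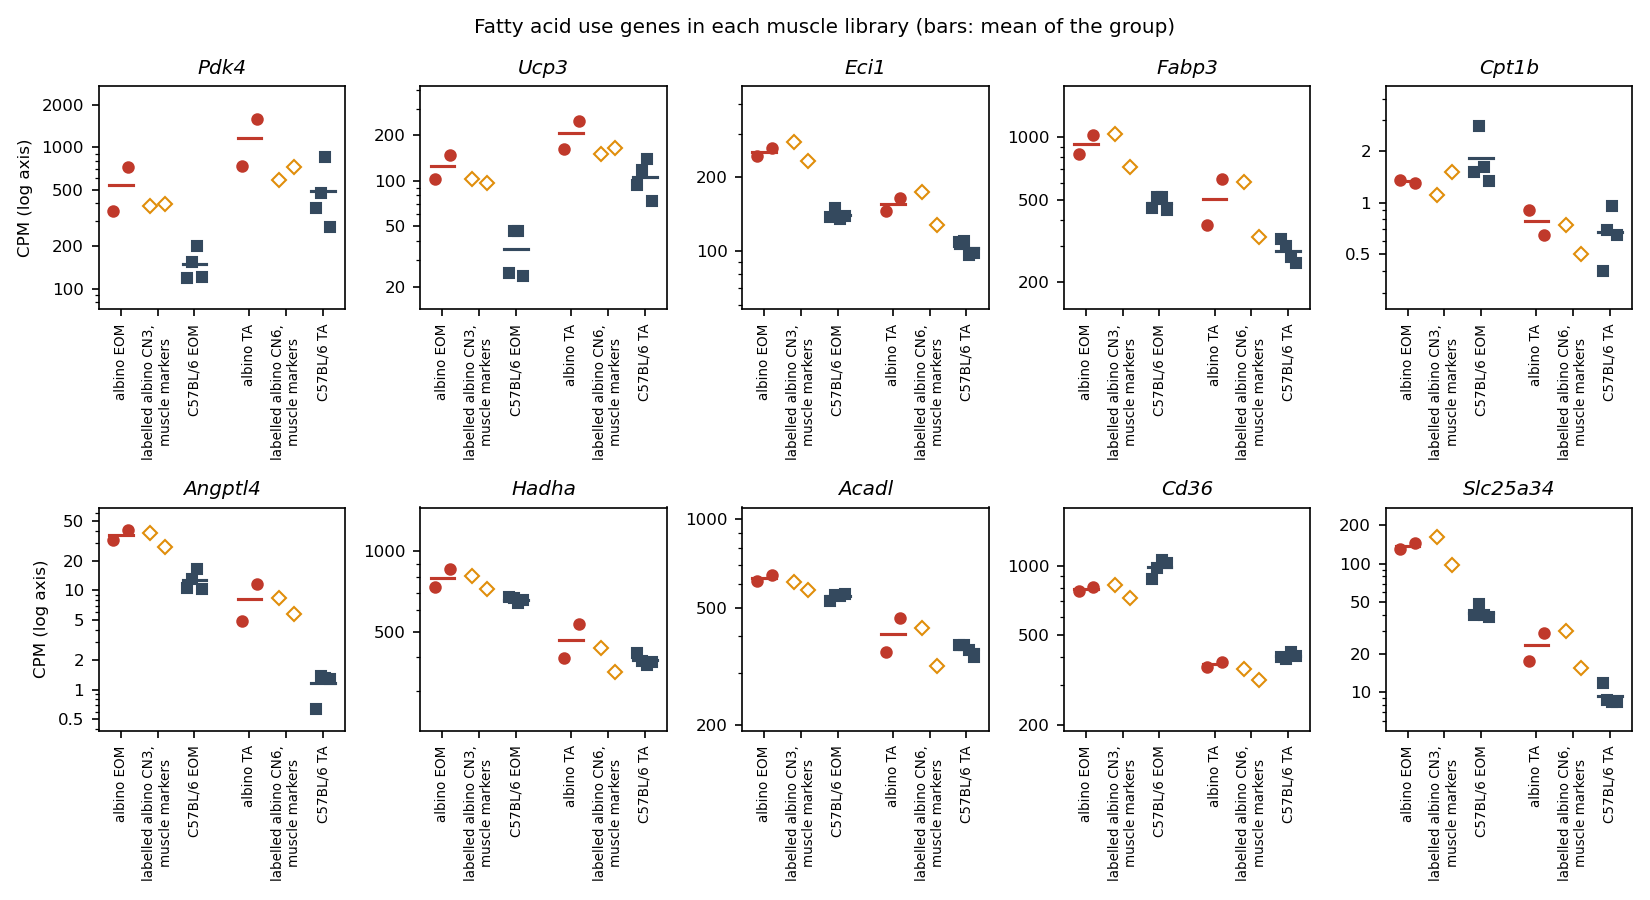
CPM of each of the 10 genes (log axis) in single muscle libraries, with red circles for albino, slate squares for C57BL/6, open diamonds for the albino libraries labelled CN3 or CN6 that hold muscle genes, and bars for group means. Pdk4 in albino EOM sits at 353 and 723 CPM, above the 119 to 200 CPM of C57BL/6 EOM, and Cd36 runs the other way.

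The fuel switch and the mitochondrial carriers came highest. Pdk4 (chromosome 6, 5483351 to 5496309, minus strand, mm10) read 353 and 723 CPM in albino EOM, against 119, 153, 200 and 121 CPM in C57BL/6 EOM. Both albino libraries lay above all 4 C57BL/6 libraries, and they differed from each other 2.05-fold. The log2 fold change was 1.89 ± 0.28 (standard error, adjusted p = 0.00194), a 3.72-fold rise. Ucp3 (chromosome 7, 100472990 to 100486432, plus strand), an uncoupling protein family member of the inner mitochondrial membrane in muscle, read 102 and 148 CPM in albino EOM, against 24.6, 46.4, 46.3 and 23.6 CPM in C57BL/6 EOM. Its groups did not overlap either, and it rose 3.62-fold (1.86 ± 0.29, adjusted p = 0.00233). Slc25a34 (chromosome 4, 141618824 to 141623821, minus strand), a member of the mitochondrial carrier family, read 131 and 144 CPM in albino EOM, against 39.7, 48.7, 40.2 and 38.2 CPM in C57BL/6 EOM. Its log2 fold change of 1.74 ± 0.11 (adjusted p = 0.000177) stood on the tightest replicates of these 3 genes. With the GC and length offsets the log2 fold changes were 2.05 for Pdk4, 1.68 for Ucp3 and 1.36 for Slc25a34.

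Genes of the supply of fatty acids moved in both directions. Angptl4 (chromosome 17, 33773750 to 33781830, minus strand) encodes a secreted inhibitor of lipoprotein lipase that fasting raises. It read 32.3 and 40.3 CPM in albino EOM, against 10.6, 13, 16.5 and 10.3 CPM in C57BL/6 EOM, so that the groups stood apart, and it rose 2.93-fold (log2 1.55 ± 0.18, adjusted p = 0.000982). Fabp3 (chromosome 4, 130308595 to 130315463, plus strand) encodes the fatty acid binding protein of heart and muscle. It read 834 and 1030 CPM in albino EOM, against 457, 513, 514 and 447 CPM in C57BL/6 EOM, again apart, and rose 1.96-fold (log2 0.97 ± 0.11, adjusted p = 0.000833). That call was lost with the GC and length offsets (log2 0.44, adjusted p = 0.0769). About 9.7% and 9.8% of the exon bases of Fabp3 overlap Gm10570 and Zcchc17 on the other strand, and the strand setting of the counting is not given in the sources used here. Cd36 (chromosome 5, 17781690 to 17888801, minus strand), a fatty acid transporter of the surface of muscle and endothelial cells, read 778 and 807 CPM in albino EOM, against 874, 976, 1060 and 1030 CPM in C57BL/6 EOM. Both albino libraries were the lower ones, and it fell (log2 −0.30 ± 0.09, adjusted p = 0.0382). The offsets turned Cd36 to 0.18 (adjusted p = 0.377), and the call was also lost without any single EOM library except C57BL/6 EOM 1, with adjusted p of 0.0511 to 0.155.

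Among the enzymes of beta-oxidation, Eci1 stood out. Eci1 (chromosome 17, 24426641 to 24439348, plus strand) encodes an isomerase that lets unsaturated fatty acids enter the cycle. It read 245 and 264 CPM in albino EOM, against 137, 150, 135 and 138 CPM in C57BL/6 EOM, with close replicates and no overlap. It rose 1.84-fold (log2 0.88 ± 0.08, adjusted p = 0.000536), and by 0.54 with the offsets (adjusted p = 0.0216). Hadha (chromosome 5, 30118304 to 30155162, minus strand), the alpha subunit of the trifunctional protein that carries out the last steps on long chains, read 734 and 859 CPM in albino EOM, against 672, 666, 640 and 657 CPM in C57BL/6 EOM. Acadl (chromosome 1, 66830839 to 66863277, minus strand), a dehydrogenase of the first step, read 618 and 645 CPM in albino EOM, against 527, 551, 550 and 559 CPM in C57BL/6 EOM. Both genes were higher in each albino library but by little, at log2 fold changes of 0.29 ± 0.09 (adjusted p = 0.0422) for Hadha and 0.22 ± 0.07 (adjusted p = 0.0466) for Acadl. Leaving out albino EOM 4 took them to 0.11 (adjusted p = 0.426) and 0.13 (adjusted p = 0.332). Leaving out any single C57BL/6 EOM library ended both calls (adjusted p of 0.0521 to 0.127), leaving out albino EOM 3 ended that of Acadl (0.0707), and the offsets ended both (0.0698 and 0.349).

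Cpt1b (chromosome 15, 89416405 to 89425863, minus strand), the muscle form of the enzyme that makes carnitine esters for entry into mitochondria, read only 10 to 52 counts in the matching muscle libraries. It read 1.36 and 1.3 CPM in albino EOM, against 1.51, 2.8, 1.61 and 1.33 CPM in C57BL/6 EOM, and the groups overlapped. The log2 fold change of −0.43 ± 0.41 was not called (adjusted p = 0.473). Of its exon bases, 81.4% are shared with a read-through gene on the same strand (Gm44502, 89416405 to 89429696), and how reads of shared exons were counted is not given in the sources used here. The table's row for the read-through of Chkb and Cpt1b held 0 counts in every library. The level of Cpt1b is therefore uncertain here, and no direction is given for its strain difference. Its values in the comparisons between tissues carry the same limit.

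The same genes were read in limb muscle, where 6 of the 10 rose in albino TA and 0 fell, against 31.1% of 13295 genes called (14.7% higher, 16.4% lower). Of the called genes 47.2% were higher in albino TA, and 58.3% with upper quartile factors. The 6 were Pdk4, Ucp3, Eci1, Fabp3, Angptl4 and Slc25a34, each of which also rose in EOM. The median log2 fold change was 0.67 over the 10 and 0 over all genes, and the ranges of 6 of the 10 did not overlap, against 49.5% of all genes. With the GC and length offsets 6 were called.

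Angptl4 had the largest difference of the 10 in limb muscle. It read 4.88 and 11.6 CPM in albino TA, against 0.64, 1.38, 1.3 and 1.29 CPM in C57BL/6 TA, a 6.92-fold rise (log2 2.79 ± 0.33, adjusted p = 7.01e-05). Both albino libraries lay above all C57BL/6 libraries, though the lower of them held less than the other by 2.37-fold. Pdk4 read 731 and 1590 CPM in albino TA, against 372, 471, 848 and 271 CPM in C57BL/6 TA. C57BL/6 TA 3 lay above albino TA 3, so the ranges overlapped. The log2 fold change of 1.20 ± 0.35 was called (adjusted p = 0.0214), but it was 0.56 without albino TA 4 (adjusted p = 0.345), and the call was lost without C57BL/6 TA 1 (0.0566) or 2 (0.0506) and with DESeq2 (0.169). Ucp3 read 162 and 249 CPM in albino TA, against 93.6, 117, 139 and 73.5 CPM in C57BL/6 TA, with no overlap. It rose by 0.92 ± 0.21 on the log2 scale (adjusted p = 0.0047), and that call was lost without albino TA 4 (0.61, adjusted p = 0.0774).

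Slc25a34 read 17.4 and 28.9 CPM in albino TA, against 11.9, 8.75, 8.36 and 8.4 CPM in C57BL/6 TA, and rose 2.42-fold (log2 1.27 ± 0.18, adjusted p = 0.000254). Eci1 read 145 and 164 CPM in albino TA, against 108, 109, 95.8 and 98 CPM in C57BL/6 TA (log2 0.55 ± 0.07, adjusted p = 0.000146). Fabp3 read 379 and 629 CPM in albino TA, against 324, 300, 266 and 247 CPM in C57BL/6 TA (log2 0.79 ± 0.15, adjusted p = 0.00149). For these 3 genes every albino library lay above every C57BL/6 library. The others were not called: Hadha (0.22, adjusted p = 0.0799), Acadl (0.14, adjusted p = 0.239), Cd36 (−0.15, adjusted p = 0.095) and Cpt1b (0.19, adjusted p = 0.794). Without albino TA 3, Hadha (0.41, adjusted p = 0.00386) and Acadl (0.31, adjusted p = 0.0193) were called, and without albino TA 4 the count of called genes was 4.

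**Figure D2:**
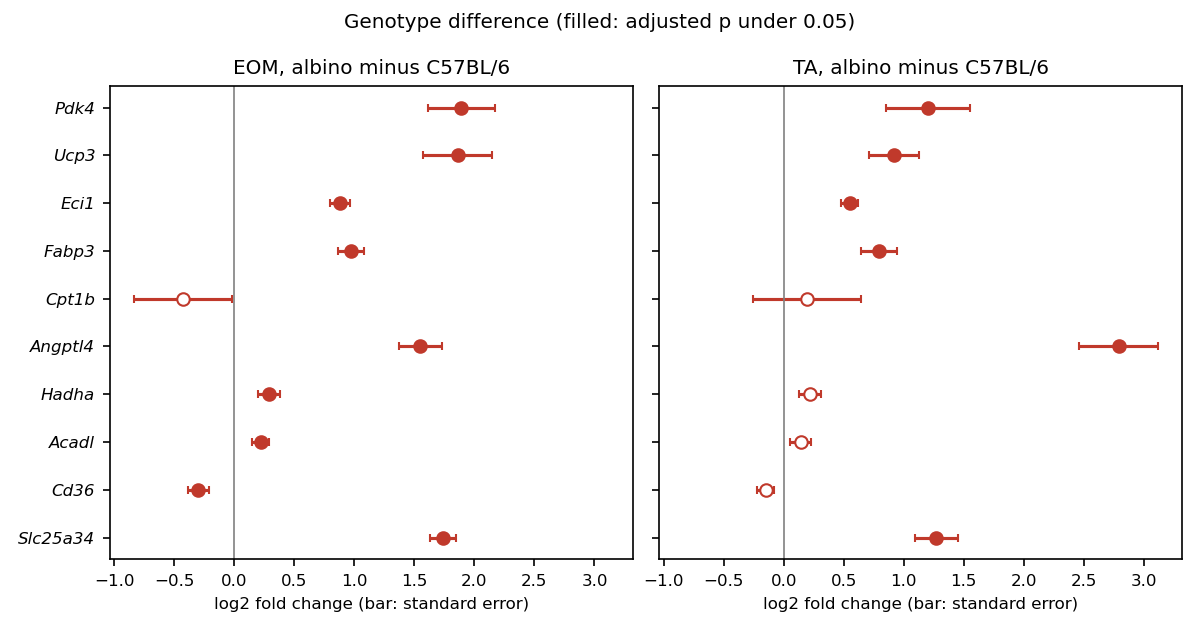
Log2 fold change of albino over C57BL/6 for each of the 10 genes in EOM (left) and TA (right), with standard errors as bars and filled points for genes called at an adjusted p under 0.05. Angptl4 lies at 1.55 in EOM and 2.79 in TA, and Hadha, Acadl, Cd36 and Cpt1b lie between −0.43 and 0.29 in both muscles.

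A direct test of whether the strain difference differs between EOM and TA called 0 of the 10 in edgeR with no block for the replicate number. It called 7.73% of 15670 genes (2.23% with a larger value in EOM, 5.49% with a smaller one), with 3760 genes at an unadjusted p under 0.05. The results with that block, which called some of the 10, are given at the end. Of the genes called there 28.9% had the larger value in EOM, and 42.1% with upper quartile factors. Among the 10, the unadjusted p was under 0.05 for Ucp3, Eci1 and Angptl4, and DESeq2 called Angptl4. Angptl4 came nearest in edgeR, at a difference of −1.24 ± 0.42 on the log2 scale (adjusted p = 0.0895), that is, a smaller rise in EOM, and it passed without albino TA 3 (−1.72, adjusted p = 0.0187). With upper quartile factors Eci1 was called (0.35, adjusted p = 0.0479).

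The 8 libraries that went against their labels can be set beside the same ranges. The libraries labelled albino CN3 3 and 4, which hold eye muscle genes, read 385 and 395 CPM of Pdk4, 102 and 96.7 CPM of Ucp3, 37.8 and 27.4 CPM of Angptl4, and 161 and 97.2 CPM of Slc25a34. Leaving out Cpt1b, both lay above the C57BL/6 EOM range for 8 of 9 genes and below it for Cd36, at 827 and 724 CPM. The share of all genes outside that range was not taken for this pair. Ranges did not overlap for 51.4% of genes in the matching albino EOM libraries. Those labelled albino CN6 3 and 4, which hold limb muscle genes, lay above the C57BL/6 TA range for Ucp3, Eci1, Fabp3, Angptl4 and Slc25a34 and below it for Cd36. Their Pdk4, at 587 and 727 CPM, was within the C57BL/6 TA range. The share over all genes was not taken for this pair either, and was 49.5% for the matching albino TA libraries. In the 4 muscle-labelled libraries that hold brain genes, Pdk4 was 11.7, 13.3, 17.6 and 14.8 CPM and Cd36 at most 4.6 CPM.

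In the brainstem samples levels ran from Hadha at 122 ± 6.6 CPM in albino CN6 and 119 ± 2.55 CPM in C57BL/6 CN6 down to Cpt1b, at 0.0924 CPM in albino CN6 and 0.112 CPM in C57BL/6 CN6, and 0 of the 9 that passed the filter on low counts were called in CN3 or CN6. edgeR called 0.0804% of 16171 genes in CN3 (0.068% higher, 0.0124% lower) and 0.0246% of 16268 in CN6 (0.00615% higher, 0.0184% lower), with 1344 and 1523 genes at an unadjusted p under 0.05, and DESeq2 called 101 and 106 genes but 0 of the 9. Cpt1b did not pass the filter. In CN3 no unadjusted p of the 9 was under 0.05, and in CN6 those of Pdk4, Angptl4, Cd36 and Slc25a34 were. Pdk4 read 11.7 and 11.3 CPM in albino CN3, against 10.8, 17.4, 8.06 and 9.82 CPM in C57BL/6 CN3. It read 11.4 and 15.9 CPM in albino CN6, against 17.3, 20.8, 15.9 and 21.3 CPM in C57BL/6 CN6 (log2 −0.47 ± 0.16, adjusted p = 0.456). Without albino CN6 2 that difference was called (−0.75, adjusted p = 0.031), in a fit that then called 950 genes. Slc25a34 read 12.1 and 10.7 CPM in albino CN6, against 8.35, 7.37, 8.73 and 7.68 CPM in C57BL/6 CN6, ranges that did not overlap (log2 0.50 ± 0.12, adjusted p = 0.391). Ranges did not overlap for 0 of the 9 in CN3, against 20.2% of genes, and for Pdk4, Cd36 and Slc25a34 in CN6, against 16.7%.

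Setting the mean of the muscles over the mean of the brainstem samples in C57BL/6 mice, all 10 genes were higher in muscle, where 88.8% of 16670 genes were called, 41.4% higher and 47.4% lower. Of those called 46.6% were higher in muscle, and 30% with library totals alone, while the 10 stayed higher under each of 26 alternatives. Cd36 had the widest gap, at a log2 fold change of 9.33 ± 0.16. Its mean was 985 ± 82 CPM in C57BL/6 EOM and 402 ± 13.6 CPM in C57BL/6 TA, against 0.929 ± 0.384 CPM in CN3 and 2.72 ± 1.1 CPM in CN6 (SD, n = 4 each). Pdk4 followed at 4.88 ± 0.24, Fabp3 at 4.22 ± 0.06, and Angptl4 had the narrowest gap at 1.27 ± 0.22. That mean of the muscles covers unlike levels. Angptl4 read 12.6 ± 2.88 CPM in C57BL/6 EOM but 1.15 ± 0.344 CPM in C57BL/6 TA, against 3.65 ± 1.54 CPM in CN3 and 1.77 ± 0.627 CPM in CN6. Slc25a34 read 41.7 ± 4.74 CPM in C57BL/6 EOM and 9.36 ± 1.72 CPM in C57BL/6 TA, against 8.11 ± 1.58 CPM in CN3 and 8.03 ± 0.621 CPM in CN6. Single muscles were not tested against brainstem.

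Levels can be compared between genes as CPM per kilobase of exon. In albino EOM Fabp3 was the most abundant of the 10, at 1130 ± 168 CPM per kilobase, followed by Acadl at 315, Cd36 at 221 and Pdk4 at 153 ± 74.5. In C57BL/6 EOM Fabp3 held 587 ± 43.7, Cd36 274 and Acadl 273, which did not differ beyond their spread, and Pdk4 42.2 ± 10.8 CPM per kilobase. In albino TA the order was Fabp3 at 612 ± 215, Pdk4 at 330 ± 173, Acadl at 203 and Cd36 at 103, with Fabp3 and Pdk4 not apart beyond their spread. In C57BL/6 TA it was Fabp3 at 345 ± 41.8, Acadl at 180, Pdk4 at 140 ± 71.7 and Cd36 at 112 CPM per kilobase, the last 3 of which overlap within the SD of Pdk4. Errors are SDs over 2 albino or 4 C57BL/6 libraries.

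Eye muscle and limb muscle of the same strain were also compared. With edgeR's TMM factors the 10 were called no more often than genes at large. In C57BL/6 mice 3 of the 10 were higher in EOM than in TA, 3 were lower and 4 were not called, where 75.9% of 15670 genes were called (41.4% higher, 34.6% lower). Ranges did not overlap for all 10, against 77.8% of genes. Ranges between the muscles are of CPM on library totals, which put the median gene at 0.86 toward EOM, while the calls use TMM factors. Eci1, called lower in EOM, thus had the higher mean CPM there (140 against 103 CPM). Pdk4 was lower in EOM, at a log2 fold change of −2.48 ± 0.35, or 0.18 of its level in TA (adjusted p = 1.32e-05), and so was Ucp3, at −2.34 ± 0.25 (adjusted p = 8.21e-07). Angptl4 (2.70 ± 0.28), Slc25a34 (1.42 ± 0.15) and Cd36 (0.55 ± 0.06) were higher in EOM. In albino mice Angptl4, Slc25a34 and Cd36 were again the higher ones, at 1.46, 1.88 and 0.40, and Pdk4 and Ucp3 the lower ones, at −1.79 and −1.41, where 58.4% of genes were called (30.4% higher, 28% lower) and 87.8% had ranges that did not overlap, as the 10 did. The albino call of Pdk4 was lost without albino EOM 3 (−1.35, adjusted p = 0.0565), without albino TA 4 (−1.15, adjusted p = 0.0787) and with library totals alone (−1.11, adjusted p = 0.0526), and that of Ucp3 with totals (−0.72, adjusted p = 0.0783). That of Cd36 was lost with the offsets (0.03, adjusted p = 0.799) and with all 24 libraries in 1 fit (0.37, adjusted p = 0.128). These contrasts share their libraries with the strain comparisons.

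For several of the other genes, direction or call between the muscles changed with the scaling or the offsets. The 20 most abundant genes took 27.8% to 28.8% of the counts in C57BL/6 TA, against 14% to 14.4% in C57BL/6 EOM. With the TMM factors of edgeR the median of all genes was 0.13, and with plain library totals it was 0.86, where 10 of the 10 were called, 8 higher in EOM and 2 lower. Over all 15670 genes, totals called 11391 higher in EOM and 1619 lower. The share of called genes that were higher in EOM was 54.5% with TMM factors and 87.6% with totals, and in albino mice 52% and 89.5%. Against that shift, Pdk4 (−1.73) and Ucp3 (−1.59) were lower in EOM with either scaling, and Eci1, at −0.29 with TMM factors, turned to 0.44. Acadl was −0.14 with TMM factors and 0.60 with totals. Cpt1b was 0.69 with TMM factors (adjusted p = 0.098) and 1.42 with totals (adjusted p = 0.00231). With the GC and length offsets Fabp3 and Hadha were lower in EOM, by 0.64 and 0.62, and Cd36 turned to −0.13 and was no longer called (adjusted p = 0.105).

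**Figure D3:**
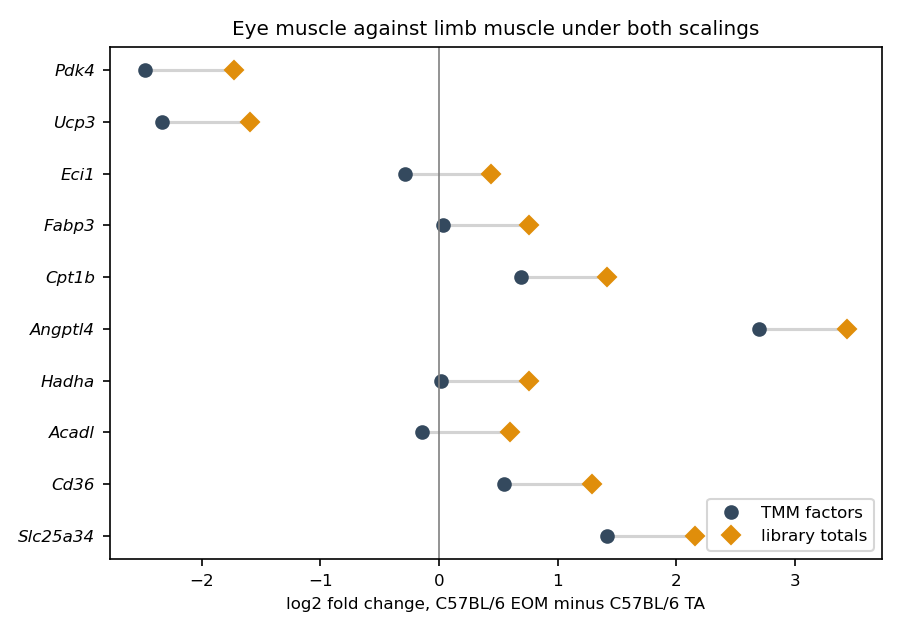
Log2 fold change of C57BL/6 EOM over C57BL/6 TA for the 10 genes, with TMM factors (slate circles) and with library totals alone (orange diamonds). Pdk4 and Ucp3 stay left of 0 and Angptl4, Slc25a34 and Cd36 right of 0 in both scalings, while Eci1 and Acadl cross it.

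Pdk4 and Ucp3 ran side by side from library to library. Over the 12 matching muscle libraries their log2 CPM had a Pearson r of 0.971, the highest for either gene among 10527 genes with a mean of at least 5 CPM, and it was 0.981 on TMM-scaled values. The libraries share strain and muscle, so part of this is the groups themselves. Deviations from the 4 group means had an r of 0.86, and are given as a description. The next genes for Pdk4 were Cmss1 (0.918), Gm15179 (0.911), Cuedc1 (0.908) and 0610040J01Rik (0.906), and for Ucp3 they were Entpd6 (0.949), Gm15179 (0.941), Rasa4 (0.941) and Leo1 (0.927). On TMM-scaled values the next gene was Gpihbp1 for both (0.974 for Pdk4 and 0.979 for Ucp3). Among the 10, the enzymes and Fabp3 also deviated together: Fabp3 had an r of 0.91 with Acadl, 0.89 with Slc25a34 and 0.88 with Hadha, while that of Pdk4 with Eci1 was 0.22. Albino EOM 4 and albino TA 4 were the higher albino library of their muscle for 9 of the 10 genes, Cpt1b being the other.

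**Figure D4:**
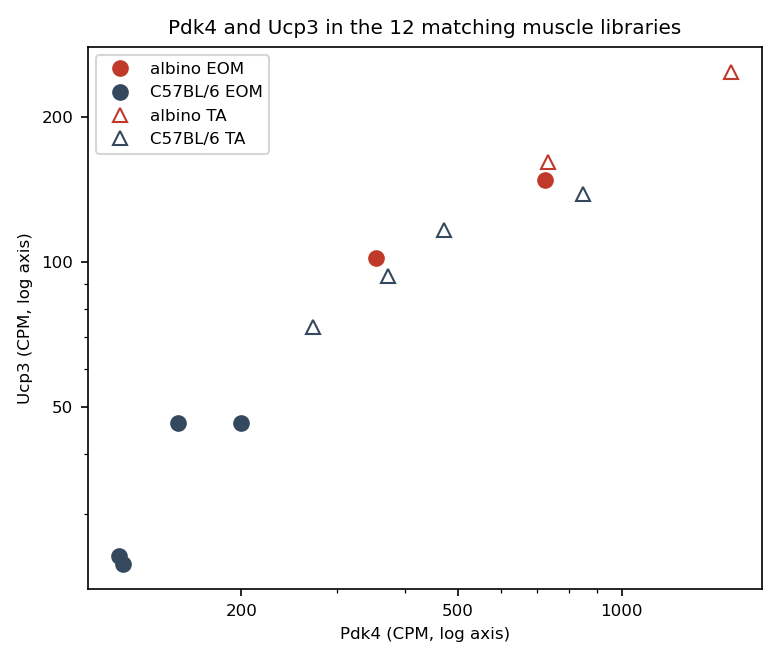
Ucp3 against Pdk4 in CPM (log axes) in the 12 matching muscle libraries, with red for albino, slate for C57BL/6, filled circles for EOM and open triangles for TA. The points run along 1 line (r = 0.971 on log2 CPM), with C57BL/6 EOM at the low end and albino TA 4 at the high end.

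Of the 3 PPARs, Ppard was called in EOM, and none was called in TA. Ppara, the main PPAR of fatty acid burning tissues, read 64.5 ± 18.1 CPM in albino EOM, against 85.1 ± 5.77 CPM in C57BL/6 EOM, and was not called (−0.38, adjusted p = 0.107). In TA it read 30.5 ± 3.03 CPM in albino and 33.4 ± 0.846 CPM in C57BL/6 (−0.16, adjusted p = 0.156). Ppard, abundant in muscle, rose in albino EOM (48.7 ± 3.28 against 37.9 ± 1.74 CPM, log2 0.38, adjusted p = 0.0132) and was 0.05 in TA (adjusted p = 0.643). With the offsets Ppara was called lower in TA (−0.31, adjusted p = 0.0126). Pparg, the PPAR of fat cells, was not called in EOM (0.32, adjusted p = 0.149) or TA (−0.25, adjusted p = 0.377). Of the 16 genes of PPARs, partners and coactivators, 4 rose and 3 fell in albino EOM, and 6 rose and 4 fell in albino TA, where 32% and 31.1% of all genes were called. In EOM they were 2 higher and 1 lower with the offsets, 4 and 2 without albino EOM 3, and 2 and 5 without albino EOM 4. In TA they were 4 and 4 with the offsets and 5 and 2 without albino TA 3.

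Among them, Rxrg, an RXR partner, rose by 0.86 in EOM and 0.47 in TA, and Esrra, an orphan receptor that drives mitochondrial genes, by 0.59 and 0.47. Nrip1, a corepressor, fell by 1.53 in EOM and 1.25 in TA. Ncor1, another corepressor, fell by 0.64 and 0.27. Perm1, a muscle regulator of the same genes, rose in TA (0.49) and was 0.26 in EOM (adjusted p = 0.0822). Ppargc1a, the coactivator PGC-1 alpha, fell by 0.50 in EOM (adjusted p = 0.0239) and 0.29 in TA (adjusted p = 0.0251). Rxra, another RXR, read 128 CPM in C57BL/6 EOM and 274 CPM in C57BL/6 TA, against 29.6 and 65.8 CPM of Rxrg. Rxra was 0 in EOM (adjusted p = 0.992) and called lower in TA (−0.50, adjusted p = 8.01e-05) with the offsets. Ppargc1a and Rxra were chosen for mention after their values were seen. With the offsets Rxrg was no longer called in EOM (0.51, adjusted p = 0.063) or TA (0.18, adjusted p = 0.0796), nor Ppargc1a (−0.08 and −0.11), and Ncor1 was called in TA (−0.24, adjusted p = 0.0132) and not in EOM (−0.35, adjusted p = 0.108), while Nrip1 (−1.07 and −1.08) and Esrra (0.55 and 0.37) were.

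Other enzymes of beta-oxidation rose in part. Of 14 tested, 9 rose and 0 fell in albino EOM (median 0.29) and 5 rose and 0 fell in albino TA (median 0.14). Over all genes, 14.5% were called higher and 17.6% lower in EOM, and 14.7% and 16.4% in TA. Etfb, a subunit of the protein that takes electrons from the dehydrogenases, rose by 0.56 ± 0.09 in EOM and 0.34 ± 0.08 in TA. Hadh, a dehydrogenase of the third step, rose by 0.38 and 0.30. Acadvl (0.36) and Acaa2 (0.45) rose in EOM, and Acads (0.30) and Etfdh (0.30) in TA. The counts were 5 in EOM and 2 in TA with the offsets, 6 and 2 in EOM without albino EOM 3 or 4, and 7 and 0 in TA without albino TA 3 or 4. With the offsets Etfb was 0 in EOM and −0.02 in TA, and was called in neither. Hadh (0.34 in EOM, 0.18 in TA), Acadvl (0.08 in EOM), Acaa2 (0.06 in EOM) and Acads (−0.05 in TA) were then not called either. The genes called with the offsets were Acad11, Echs1, Hadhb, Eci2 and Etfdh in EOM, and Hadhb and Etfdh in TA.

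**Figure D5:**
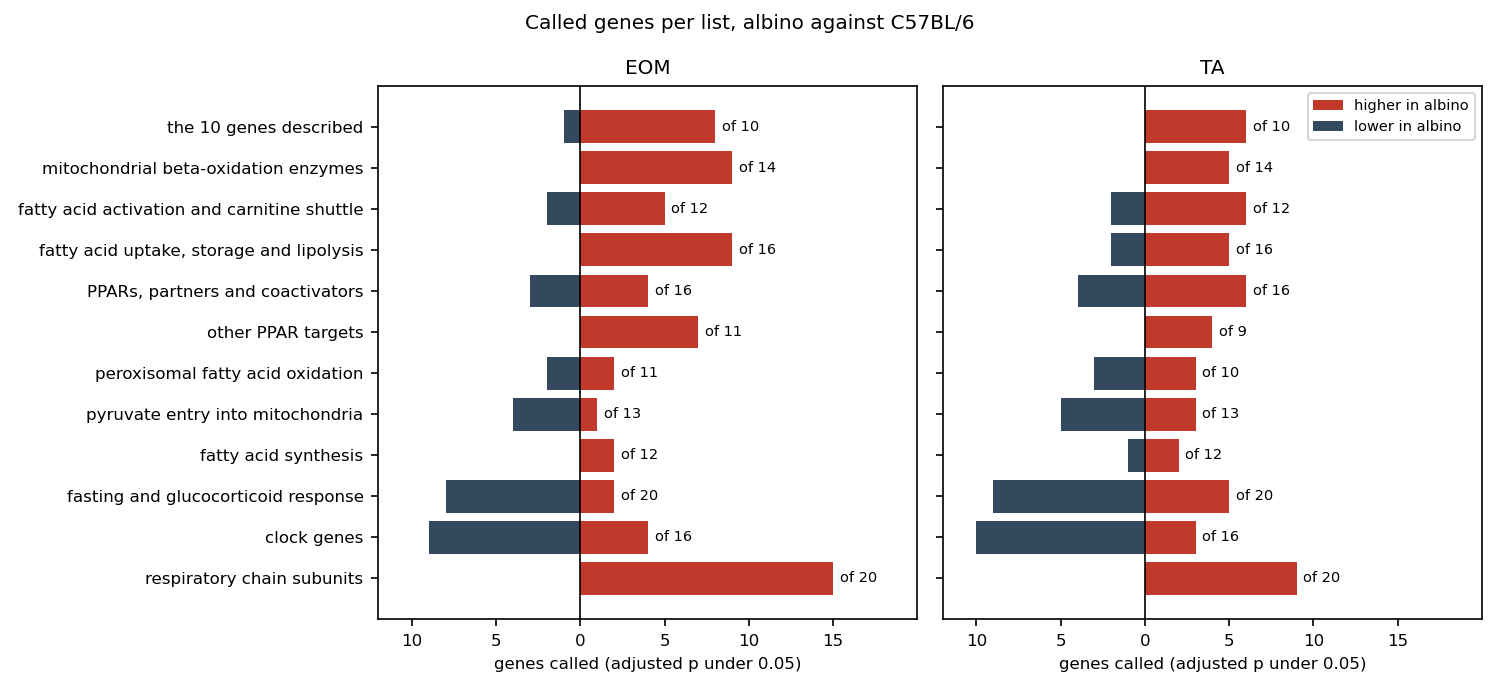
Genes called at an adjusted p under 0.05 in each list, higher in albino to the right (red) and lower to the left (slate), in EOM and TA, with the number tested beside each bar. Beta-oxidation, respiratory chain and other PPAR target lists have called genes to the right with 0 called lower in both muscles, and clock genes mostly to the left.

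Genes of activation and the carnitine shuttle split. Of 12, 5 rose and 2 fell in albino EOM, and 6 rose and 2 fell in albino TA. The called shares over all genes were 32% and 31.1%. Mlycd, which removes malonyl-CoA, the brake on carnitine ester formation, rose by 0.95 ± 0.07 in EOM and 0.54 ± 0.08 in TA. Cpt2 (0.51) and the carnitine carrier Slc25a20 (0.35) rose in EOM, and the acyl-CoA synthetases Acsl1 (0.39) and Acsl6 (0.36) in TA. Acsl4, a synthetase that prefers arachidonic acid, fell by 1.06 ± 0.11 in EOM and 0.92 ± 0.08 in TA. With the offsets 3 rose and 1 fell in EOM, and 5 rose and 3 fell in TA. Cpt2 was then not called in EOM (0.25, adjusted p = 0.272). Without albino EOM 3 the EOM counts were 3 and 1, without albino EOM 4 they were 2 and 2, while in TA, leaving out albino TA 3 gave 6 higher and 1 lower, and leaving out albino TA 4 gave 4 higher and 2 lower.

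Of 16 genes of uptake, storage and lipolysis, 9 rose and 0 fell in albino EOM, and 5 rose and 2 fell in albino TA. Here too 32% of all genes were called in EOM and 31.1% in TA. Plin5, the coat protein that ties lipid droplets to mitochondria, rose by 1.07 ± 0.09 in EOM and 0.89 ± 0.12 in TA. Mgll, the lipase of monoglycerides, rose by 0.67 and 0.78, and Gpihbp1, which holds lipoprotein lipase on the capillary wall, by 0.78 and 0.43. Slc27a1, a fatty acid transport protein, rose in EOM (0.41), and Dgat2, which makes triglyceride, fell in TA by 0.37. The count of risen genes in EOM was 5 with the offsets and 4 without albino EOM 3. With the offsets Slc27a1 in EOM (0.24, adjusted p = 0.204) and Gpihbp1 in TA (0.17, adjusted p = 0.208) were not called.

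Other PPAR targets rose where they were called, 7 of 11 tested in albino EOM and 4 of 9 in albino TA, with 14 on the list. Over all genes 14.5% were called higher in EOM and 14.7% in TA. Slc25a42, a mitochondrial coenzyme A carrier (0.53), Ehhadh, a peroxisomal oxidation enzyme (0.63), and the thioesterases Acot1 (0.97) and Acot2 (0.55) rose in EOM. Acot2 (0.90), Ucp2 (0.66), Ehhadh (0.46) and Pex11a (0.45) rose in TA. Acot1 and Acot2 are close copies, and reads of one can count for the other. With the offsets the counts were 2 in EOM and 1 in TA, and without albino EOM 4 and albino TA 4 they were 2 and 1. The genes called with the offsets were Acot1 and Ehhadh in EOM and Acot2 in TA.

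At the pyruvate gate, where Pdk4 acts, 1 of 13 genes rose and 4 fell in albino EOM, and 3 rose and 5 fell in albino TA. Called shares over all genes were 32% in EOM and 31.1% in TA. Pdp1, the phosphatase that undoes the work of Pdk4, fell by 1.00 ± 0.11 in EOM and 0.82 ± 0.07 in TA. Pdk1, another kinase of the family, fell by 0.41 and 0.42, and Dld, a subunit of the dehydrogenase complex, by 0.43 and 0.38. The pyruvate carrier subunits rose, Mpc2 by 0.37 in EOM and Mpc1 by 0.28 in TA. With the offsets 1 rose and 1 fell in EOM, and 2 rose and 6 fell in TA. Pdk1 (−0.15) and Dld (−0.08) were then not called in EOM, nor Mpc1 in TA (0.16). Pdp1 was called lower in both muscles (−0.54 and −0.56).

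Respiratory chain subunits rose with the fatty acid genes, 15 of 20 in albino EOM and 9 of 20 in albino TA, with 0 lower. Over all genes 14.5% and 14.7% were called higher. Cox8b rose by 0.92 in EOM and 0.49 in TA, Cox7a1 by 0.86 and 0.48, and Ndufa2 by 0.94 and 0.46. With the offsets, 3 rose and 0 fell in EOM, and 3 rose and 1 fell in TA. Cox8b (0.26), Cox7a1 (0.24) and Ndufa2 (0.43) were then not called in EOM, and all of them were in TA (0.29, 0.23 and 0.26). Of genes of peroxisomal oxidation, 2 rose and 2 fell of 11 in albino EOM, and 3 rose and 3 fell of 10 in albino TA. Of 12 genes of fatty acid synthesis, 2 rose and 0 fell in EOM, and 2 rose and 1 fell in TA. Beside the peroxisomal and synthesis counts, 32% of all genes were called in EOM and 31.1% in TA. Without albino EOM 3, the synthesis genes were 1 higher and 5 lower in EOM, and without albino EOM 4 they were 0 and 0. Abcd2, a peroxisomal fatty acid transporter, fell by 0.66 in EOM and 0.53 in TA, Crot fell by 0.39 and 0.40, and Srebf1, a regulator of lipid synthesis, rose by 0.56 and 0.62. With the offsets the peroxisomal genes were 0 higher and 0 lower in EOM and 0 and 3 in TA, and those of synthesis 0 and 0 in EOM and 1 and 3 in TA. Abcd2 (−0.27, adjusted p = 0.228), Crot (−0.14, adjusted p = 0.454) and Srebf1 (0.34, adjusted p = 0.274) were then not called in EOM.

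Since fasting, glucocorticoids and the time of day all change Pdk4, Angptl4 and Ucp3 in muscle, genes of those responses were read beside them. Of 20 fasting and glucocorticoid response genes, 2 rose and 8 fell in albino EOM, and 5 rose and 9 fell in albino TA. Without albino EOM 3 they were 1 and 6 in EOM, without albino EOM 4 they were 2 and 11, while in TA, leaving out albino TA 3 gave 4 higher and 5 lower, and leaving out albino TA 4 gave 4 higher and 10 lower. Fkbp5 (−1.23) and Sesn1 (−0.51) fell in EOM, Cebpd (−0.97) and Foxo4 (−0.38) fell in TA, and Tsc22d3, a classic glucocorticoid target, fell by 1.20 in EOM and 0.93 in TA. Cdkn1a, a cell cycle inhibitor, rose in EOM (1.21), and Fbxo32, the ubiquitin ligase atrogin-1, rose in TA (1.13, 839 against 375 CPM). With the offsets Cdkn1a was also called higher in TA (0.79) and Sesn1 lower there (−0.51). Of 16 clock genes, 4 rose and 9 fell in albino EOM, and 3 rose and 10 fell in albino TA. Beside both lists, 14.5% of all genes were called higher and 17.6% lower in EOM, and 14.7% and 16.4% in TA. Per2 read 6.16 CPM in albino EOM, against 67.4 CPM in C57BL/6 EOM (log2 −3.44 ± 0.20), and 4.9 CPM in albino TA, against 24.3 CPM in C57BL/6 TA (−2.35 ± 0.16). Hlf fell in EOM (−2.41) and TA (−1.24), and Ciart fell in EOM (−3.60). Dbp fell by 2.26 in EOM and 1.45 in TA, and Arntl rose in TA (2.30 ± 0.11, 39.6 against 7.87 CPM). With the offsets Ciart was also called lower in TA (−2.94) and Arntl higher in EOM (3.52). The part of these fasting, glucocorticoid and clock genes in the differences of the 10 genes was not tested.

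Markers of other cells were read as well, and not all of their sums stood apart between the strains. Endothelial markers summed to 690 to 693 CPM in albino EOM, against 506 to 596 CPM in C57BL/6 EOM, and to 427 to 448 CPM in albino TA, against 300 to 351 CPM in C57BL/6 TA. Of the 8, 5 rose in EOM and 4 in TA, where 14.5% and 14.7% of all genes were called higher. Fibroblast markers summed to 3970 to 4030 CPM in albino EOM, against 5160 to 5850 CPM in C57BL/6 EOM, and to 1250 to 1290 CPM in albino TA, against 457 to 657 CPM in C57BL/6 TA. Macrophage markers summed to 658 to 777 CPM in albino EOM, against 562 to 692 CPM in C57BL/6 EOM, and all 8 rose in TA, to 146 to 182 CPM in albino, against 38.3 to 46.6 CPM in C57BL/6. Fat cell markers summed to 214 to 617 CPM in albino EOM, against 184 to 304 CPM in C57BL/6 EOM, and to 46.9 to 75.7 CPM in albino TA, against 21.8 to 49.2 CPM in C57BL/6 TA. Fast fibre markers summed to 77200 to 80400 CPM in albino EOM, against 66600 to 74800 CPM in C57BL/6 EOM, with 7 of 10 higher and 1 lower. They summed to 181000 to 189000 CPM in albino TA, against 175000 to 185000 CPM in C57BL/6 TA, with 1 higher and 1 lower. With the offsets the fast fibre markers were 0 higher and 0 lower in EOM and 0 higher and 7 lower in TA. Endothelial markers were then 3 higher and 0 lower in each muscle, and fat cell markers 0 and 0. Fibroblast markers went from 1 higher and 5 lower in EOM to 1 and 1, and from 7 higher in TA to 8. Macrophage markers went from 3 higher and 1 lower in EOM to 0 and 2, and stayed 8 higher in TA. Every marker of these lists was detected in both muscles of both strains. Of 8 slow fibre markers, 1 rose and 0 fell in EOM, and 0 rose and 2 fell in TA. Of 4 glutamatergic neuron markers tested in TA, 2 rose and 1 fell. Snap25 among them read 2.84 and 0.97 CPM in albino TA, against 0 CPM in C57BL/6 TA. Over all genes 32% were called in EOM and 31.1% in TA. The part of these cells in the results was not tested.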

How the data were processed

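RNA-seq libraries were made from total RNA, extracted with RNeasy Fibrous Tissue or Lipid Tissue Mini Kits per the labels' protocols. The authors deposited raw counts per gene symbol, made with Trimmomatic 0.33, FastQC, HISAT2 2.1.0, featureCounts and edgeR on mm10, per the submitters' processing notes. The annotation, the strand setting and any filters are not given in the sources used here. Of counts from 1 to 50, 75.4% were even, so counting error may be larger than single reads would give, and 27 symbols in the table look like dates.

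Each library kept its labelled group. The 24 libraries whose fast fibre and neuron markers match the labelled kind of tissue, muscle or brain, entered the tests, and the other 8 did not. Tests used edgeR 4.0.16 (filterByExpr, TMM factors, quasi-likelihood F test, R 4.3.3) over all genes with Benjamini-Hochberg adjustment at 0.05. EOM and TA shared 1 fit for the comparisons between muscles, and the standard error is the log2 fold change divided by the root of F. CPM uses the deposited totals. Log2 CPM has a prior count of 2. Exon lengths, GC content and positions come from GENCODE M21 for 95.6% of symbols, and the offsets for them are natural splines with 5 degrees of freedom. DESeq2 1.42.0 and limma 3.58.1 (voom), other scaling and filters, a block for the replicate number and fits without each library in turn were alternatives, and library totals alone and the repeats of the list counts were added after the data were seen. The scripts were tested on simulated counts. All 10 genes are named, with up to 4 genes per list of smallest adjusted p, the PPARs, and the 5 genes most like Pdk4 and Ucp3. The members and lists were chosen with earlier results of these data known.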

Additional observations from a re-analysis of the deposited data

Results flagged for a closer look

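In each group of 4 C57BL/6 libraries, a library was singled out where its gap to the nearest other took a larger share of the group's range than Dixon's critical value, and chance gives about 1 in 20 groups. This happened for 5 of 40 groups. In C57BL/6 TA 1, Slc25a34 read 11.9 CPM, against 8.36 to 8.75 CPM in the other 3 libraries, and Angptl4 read 0.64 CPM, against 1.29 to 1.38 CPM. Fabp3 read 29.5 CPM in C57BL/6 CN3 2, against 32.3 to 32.8 CPM in the others. Cd36 read 1.5 CPM in C57BL/6 CN3 1, against 0.662 to 0.791 CPM, and Angptl4 read 2.71 CPM in C57BL/6 CN6 3, against 1.38 to 1.53 CPM.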

How the results depend on the processing

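Counts below are of the 10 genes called, then of all genes called. Leaving out 1 library at a time gave 6 to 7 and 2738 to 4811 for albino against C57BL/6 in EOM, 4 to 8 and 2484 to 3849 in TA, 0 to 0 and 2 to 12 in CN3, 0 to 1 and 4 to 950 in CN6, and 0 to 1 and 591 to 1351 for the strain difference between muscles. For EOM over TA it gave 6 to 6 and 11455 to 12028 in C57BL/6 and 4 to 5 and 7420 to 9302 in albino mice, and for muscle over brainstem 10 to 10 and 14766 to 14940. With all libraries as labelled, the strain comparison gave 0 and 1 in EOM, 0 and 18 in TA, and 0 genes in CN3 and CN6. Log2 fold changes then turned to −0.65 for Acadl, −0.01 for Eci1 and −0.54 for Hadha in EOM, and to −0.32 for Eci1, −0.15 for Fabp3 and −0.04 for Ucp3 in TA. As labelled, the test between muscles called 33 genes, and EOM over TA gave 0 and 3 in albino and 0 and 4147 in C57BL/6. With the GC and length offsets, EOM gave 5 and 1626 in the strain comparison, with Cd36 at 0.18. EOM over TA then gave 8 in albino mice, with Eci1 at −0.66, Fabp3 at −0.61 and Hadha at −0.30, and in C57BL/6 Cd36 was −0.13, Fabp3 −0.64 and Hadha −0.62. With library totals, EOM over TA called 10 in C57BL/6, with Acadl at 0.60 and Eci1 at 0.44, and Acadl was 0.63 in albino mice. Over all genes, totals called 11391 higher and 1619 lower in C57BL/6. DESeq2 called 101 genes in CN3, 106 in CN6, and 1 and 1924 between muscles, where upper quartile factors also called 1. In CN6 limma voom called 9 genes. No filter gave 21 genes in CN3 and 21 in CN6, and 1 fit of 24 libraries gave 49 and 12. The cause was not tested for these changes.

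Whether the replicate numbers pair the samples is not said by the labels and could not be settled here. Deviations of same-numbered C57BL/6 EOM and TA libraries had correlations of 0 to 0.09, and of the albino ones 0.18 each. With 2 albino libraries per muscle the deviations mirror each other, so the albino value is a single number and decides nothing. With a replicate block, the test between muscles called 4 of the 10 (Pdk4 0.58, adjusted p = 0.0393, Ucp3 0.95, 3.96e-05, Eci1 0.32, 0.0328, and Angptl4 −1.16, 0.00789) and 2279 genes, EOM called 2641 genes, CN3 5 and CN6 0. The block ended the calls of Hadha (0.0791) and Acadl (0.166) in EOM and of Pdk4 in TA (1.12, 0.0721), and with the offsets also those of Pdk4 (1.18, 0.131) and Ucp3 (0.72, 0.0998) in TA. The replicate block with the offsets gave 5 and 868 in EOM with Cd36 at 0.18, 2735 genes in TA, 43 in CN3, and 3 and 2224 between muscles. EOM over TA gave 8 with it in albino mice, with Eci1 at −0.67, Fabp3 at −0.59 and Hadha at −0.30, and in C57BL/6 Cd36 was −0.13, Fabp3 −0.64 and Hadha −0.62. With 2 matching albino libraries per tissue, and 10 to 52 counts of Cpt1b in muscle, depth and number limit what these tests can detect.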
